A study of Mus musculus with 6 samples.

Results

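The genes described here are 4 TRIM ubiquitin ligases (Trim63, Trim54, Trim55 and Trim32), 3 F-box proteins (Fbxo32, Fbxo40 and Fbxo30) and 3 forkhead transcription factors of the FoxO class (Foxo1, Foxo3 and Foxo4). They are 10 of the 23367 gene entries in the deposited table and were picked by symbol. The series holds 6 RNA-seq libraries of polyadenylated RNA from the gastrocnemius, a fast calf muscle, of FVB mice. The stages were E18.5 (1 library pooled from male and female fetuses), PN2 (1 library pooled from several male pups), PN14 (2 libraries, replicates 1 and 2, each from a separate male), PN28 (1 male) and adult at 22 weeks (1 male). All mice were wild type with no treatment named, and the design addressed how the muscle transcriptome changes through postnatal development.

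Ubiquitin ligases attach ubiquitin to chosen proteins, which the proteasome then degrades. Trim63 (MuRF1), Trim55 (MuRF2) and Trim54 (MuRF3) are close relatives that bind to titin and other parts of the sarcomere. Fbxo32 (atrogin-1), Fbxo40 and Fbxo30 (MUSA1) are the substrate-recognition subunits of SCF complexes, in which a cullin scaffold joins the substrate to the ubiquitin-conjugating enzyme. FoxO factors are held outside the nucleus when insulin or IGF-1 signals through Akt, and they switch on Trim63 and Fbxo32 in adult muscle that is fasted, denervated or treated with glucocorticoid, so these ligases are best known as atrophy genes.

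The annotated genes lie at chr4:133871035-133885544 (Trim63), chr5:31419085-31440003 (Trim54), chr3:19544460-19591599 (Trim55), chr4:65266020-65277272 (Trim32), chr15:58011634-58046433 (Fbxo32), chr16:36963546-36990553 (Fbxo40), chr10:11001128-11017850 (Fbxo30), chr3:52072259-52154031 (Foxo1), chr10:41901647-41996561 (Foxo3) and chrX:98449867-98456212 (Foxo4) of mm9. Fbxo32, Fbxo40 and Foxo3 are on the minus strand and the other members on the plus strand. Trim32 sits inside Astn2, and Trim54, Fbxo32 and Foxo1 overlap Gm15469, Gm15943 and RP24-337A16.1, each on the opposite strand. Whether the counting used strand was not stated, and whether any reads of Trim54, Trim32, Fbxo32 and Foxo1 are shared with these partners was not tested.

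Promoter sequence from RefSeq on GRCm38.p6, covering 250 bases before to 50 bases after each gene start, was matched for 7 of the 10 members (8 promoters), with no entry for Trim55, Fbxo32 and Foxo4. The FoxO binding element, searched as GTAAACA on both strands, was found in 1 of the 8, that of Trim63, where its reverse complement starts 194 bases before the gene start. The same letters occur in 3.65% of all 32851 RefSeq promoters of this length. The 30-base window at chr4:134314915-134314944 of GRCm38.p6, plus strand, is shown because it is where these letters occur among the member promoters, with the element in capitals (a match of letters is not a measured binding site).
Trim63 promoter window: cagtctgttctTGTTTACgacccccacggc
The E-box, searched as CANNTG and bound by the myogenic factors, was found in 6 of the 8 member promoters and in 72.3% of all promoters. The MEF2 element was found in 0 of the 8 and in 0.557% of all promoters.

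The libraries held between 125402932 and 157868359 expected counts on genes. Counts behind the members ranged from 647 (Fbxo40 at E18.5) to 68968 (Fbxo32 in the adult). FPKM values are scaled to gene length and to the library total, and the share of all counts on the top 20 genes was 16.0% in the fetal library, 16.7% at PN2 and 36.9% in both the PN28 and adult libraries. Changes between stages were therefore tested after TMM scaling, which is meant to correct for such a shift in make-up. With library size alone the median gene moved by -0.66 (log2) from PN2 to PN14 and by -1.10 from E18.5 to adult. The TMM medians were -0.01 and -0.05. TMM assumes that most genes keep their level and centres them by design, so these medians do not test the scaling. A gene was called when edgeR's quasi-likelihood test gave an adjusted p under 0.05 (Benjamini-Hochberg, over 16882 genes tested) and the log2 fold change was at least 1 in size. The spread in that test comes from the PN14 pair alone, with 1 residual degree of freedom, and the other stages are assumed to vary as PN14 does. Each library also ran on a lane of its own, so lane and stage cannot be told apart.

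Of the 4 TRIM ligases, Trim63 and Trim54 rose after birth while Trim55 and Trim32 did not pass the test in any interval. Trim63, the MuRF best known from muscle wasting, was at 19.3 FPKM at E18.5, 25.95 at PN2, 70.9 and 51.6 at PN14, 74.1 at PN28 and 127 at 22 weeks. Its lowest value was fetal and its highest adult, and both PN14 libraries lay above PN2 and below PN28. From PN2 to PN14, Trim63 rose by 1.92 on the log2 scale (SE 0.363, adjusted p = 0.0151, edgeR quasi-likelihood test), and from E18.5 to adult by 3.75 (SE 0.424, adjusted p = 0.00184), which is 13.4-fold after TMM scaling and 6.59-fold in FPKM.

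Trim54, which is found with titin and at microtubules of the fibre, was the most abundant member in every library but that of E18.5. It was at 48.8 FPKM at E18.5, 70.6 at PN2, 116 and 94.9 at PN14, 149 at PN28 and 238 at 22 weeks. The values at successive stages did not overlap, and PN14 averaged 106 ± 15.2 FPKM (SD, n = 2). Trim54 rose by 1.26 from PN2 to PN14 (SE 0.327, adjusted p = 0.0346, edgeR quasi-likelihood test) and by 3.31 from E18.5 to adult (SE 0.389, adjusted p = 0.00195). The first of these calls depends on the scaling, since with library size alone the change was 0.58 and was not called.

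Trim55, the MuRF that signals between titin and the nucleus, had the narrowest range of the 10 genes in FPKM, but not after TMM scaling. Its TMM range (0.701 on the log2 scale) was wider than those of Fbxo30 (0.506), Trim32 (0.559), Foxo1 (0.595) and Foxo3 (0.667). Trim55 was at 51.5 FPKM at E18.5, 47.5 at PN2, 37.8 and 33.99 at PN14, 41.7 at PN28 and 33.2 at 22 weeks. From lowest to highest this was 1.55-fold. The E18.5 value was close to that of Trim54 in the same library (48.8), a smaller gap than that between the PN14 replicates of Trim54. From E18.5 to adult the log2 change of Trim55 was 0.39 (SE 0.267, adjusted p = 0.254, edgeR quasi-likelihood test) with TMM and -0.63 with library size alone, and neither was called.

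Trim32, a ligase of a different TRIM branch whose mutation causes a limb-girdle muscular dystrophy, was the least abundant TRIM gene. It was at 9.34 FPKM at E18.5, 7.36 at PN2, 3.67 and 4.55 at PN14, 3.77 at PN28 and 3.73 at 22 weeks. In FPKM both early libraries were above all later ones, and the PN14 pair spanned the values of PN28 and adult. After TMM scaling PN2 (15.97 CPM) was below the adult (16.45), and both PN14 libraries (13.7 and 14.2) were below PN28 (15.1). The log2 change from E18.5 to adult was -0.30 with TMM (adjusted p = 0.253, edgeR quasi-likelihood test), and with library size alone it was -1.32 and called, beside a median of -1.10 for all genes on that scale.

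**Figure D1:**
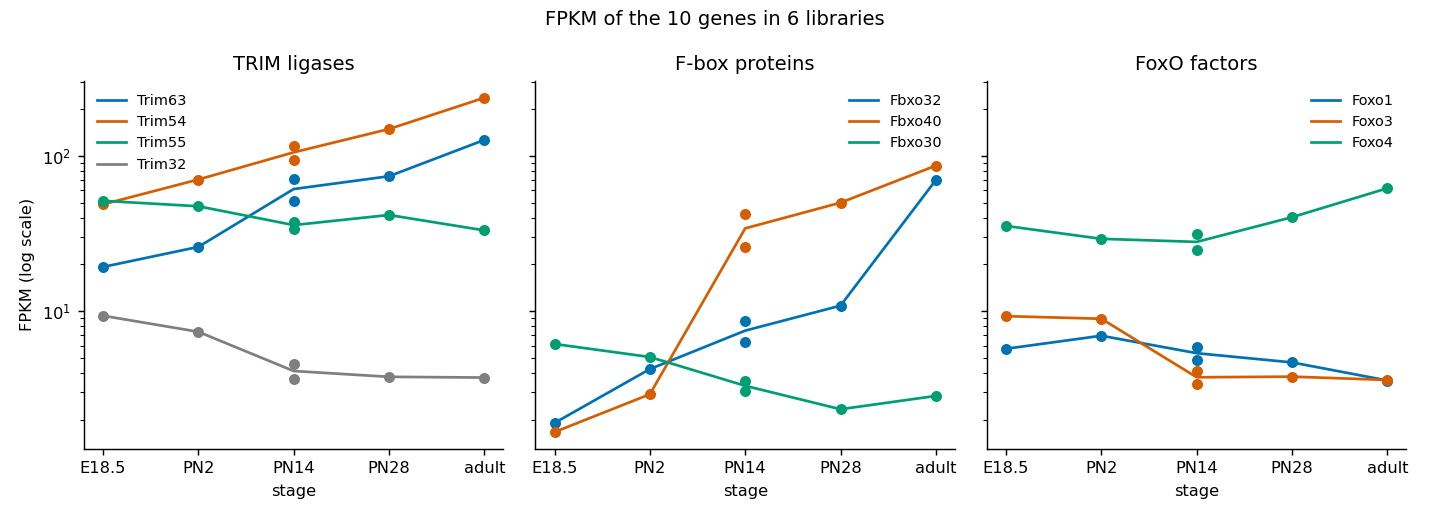
FPKM of each gene (log axis) in the 6 libraries by stage, with 1 point per library and lines through the stage means, in panels for TRIM ligases, F-box proteins and FoxO factors. In FPKM, Trim63, Trim54, Fbxo32, Fbxo40 and Foxo4 are highest in the adult, while Trim55, Trim32, Fbxo30 and Foxo3 are highest at E18.5. After TMM scaling Trim55 is highest at PN28 (92.2 CPM, against 61.5 at E18.5).

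Among the F-box proteins, Fbxo40 and Fbxo32 showed the largest changes of the 10 genes and Fbxo30 showed none that was called. Fbxo40, which targets the insulin receptor substrate IRS1 in muscle, was the lowest member of all at E18.5, with 1.66 FPKM. It stood at 2.91 at PN2, 42.5 and 25.9 at PN14, 50.1 at PN28 and 86.8 at 22 weeks. The step between PN2 and PN14 was far larger than the gap between the PN14 replicates, which at 0.97 (log2, TMM) was still the widest of the 10 genes. Fbxo40 rose by 4.25 in that interval (SE 0.503, adjusted p = 0.00577, edgeR quasi-likelihood test) and by 6.73 from E18.5 to adult (SE 0.590, adjusted p = 0.00125), a TMM-scaled 106-fold.

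Fbxo32, the atrogin-1 gene, followed another course. Its FPKM was 1.90 at E18.5, 4.23 at PN2, 8.61 and 6.36 at PN14, 10.9 at PN28 and 70.0 at 22 weeks. The adult library stood apart, 6.46-fold above PN28 in FPKM, where Trim63, Trim54 and Fbxo40 differed by 1.71-fold, 1.59-fold and 1.73-fold. Fbxo32 rose by 1.51 from PN2 to PN14 (SE 0.354, adjusted p = 0.0266, edgeR quasi-likelihood test), a change of 0.82 that was not called with library size alone, and by 6.23 from E18.5 to adult (SE 0.476, adjusted p = 0.00123). The late step from PN28 to adult was 2.83 (SE 0.406) with an adjusted p of 0.0534, and was not called by edgeR's quasi-likelihood test. The same step passed with the Wald test of DESeq2 (adjusted p = 5.85e-11) and the exact test of edgeR (adjusted p = 5.87e-08), and each of these stages rests on 1 mouse.

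Fbxo30, the MUSA1 gene, which BMP signalling holds down, stood at 6.14 FPKM at E18.5, 5.06 at PN2, 3.06 and 3.54 at PN14, 2.33 at PN28 and 2.84 at 22 weeks. It was the most abundant F-box member in the first pair of stages and the least abundant from PN14 on. Its log2 change from E18.5 to adult was -0.08 (adjusted p = 0.738, edgeR quasi-likelihood test) with TMM, and -1.11 and called with library size alone.

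The 3 FoxO genes differed in level and in course. Foxo4 made up most of the FoxO transcript in every library, at 35.4 FPKM at E18.5, 29.3 at PN2, 31.3 and 24.6 at PN14, 40.3 at PN28 and 62.0 at 22 weeks. In FPKM the PN14 pair fell on both sides of PN2, but after TMM scaling both PN14 libraries (116 and 76.2 CPM) were above PN2 (62.8 CPM). The adult value was the highest on either scale. Foxo4 rose by 1.83 from E18.5 to adult (SE 0.354, adjusted p = 0.00762, edgeR quasi-likelihood test), but with library size alone the change was 0.81 and under the size limit.

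Foxo1, the factor most often tied to fasting and to fibre type, ranged only from 3.57 FPKM in the adult to 6.94 at PN2, with 5.72 at E18.5, 4.87 and 5.84 at PN14 and 4.67 at PN28. In FPKM the E18.5 value lay between the PN14 replicates, but after TMM scaling it was below both (21.7 CPM against 31.96 and 32.03). On that scale E18.5 was the lowest library and PN28 the highest (32.8 CPM), and the adult (27.6) was above PN2 (26.4). Foxo1 was called in no comparison. Foxo3, the main FoxO activator of autophagy and of Fbxo32 in wasting fibres, was at 9.28 FPKM at E18.5, 8.93 at PN2, 3.38 and 4.11 at PN14, 3.78 at PN28 and 3.60 at 22 weeks. Its early libraries were above all later ones. The PN2 to PN14 difference of Foxo3 had an adjusted p of 0.0474 (edgeR quasi-likelihood test) but a log2 size of -0.60 (SE 0.175), under the limit for a call. With library size alone the difference was -1.25 and called. In the adult, Foxo1 and Foxo3 differed by less than either gene's PN14 spread.

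Over all 10 genes, 4 of the 10 were called from PN2 to PN14, against 23.0% of all genes tested, and all 4 rose, against 11.8% of genes that rose. From E18.5 to adult 5 of the 10 were called and all 5 rose, against 44.9% of genes called and 21.4% that rose. The share called in that longest comparison was near the background, and 0 of the 10 were called lower, against 11.2% of genes in the shorter and 23.6% in the longer comparison (at an unadjusted p under 0.05, edgeR gave 5 members in each, against 45.8% and 61.3% of all genes). Starting from PN2 in place of E18.5, a choice made after seeing the data because the fetal pool held both sexes, the adult comparison again called 5, all higher, against 40.0% of genes called. With library size alone 4 of the 10 rose and 3 (Trim32, Fbxo30 and Foxo3) fell from E18.5 to adult, against 7.98% and 45.6% of all genes.

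In the other intervals edgeR's quasi-likelihood test called 0 of the 10. These were E18.5 to PN2 (0.0296% of all genes called), PN14 to PN28 (0.0178%) and PN28 to adult (0.521%). An unadjusted p under 0.05 was reached by 1 member in each interval, against 6.64%, 8.41% and 18.3% of all genes. It was Fbxo32 from E18.5 to PN2 (log2 change 1.16), Foxo4 from PN14 to PN28 (0.74) and Fbxo32 from PN28 to adult. The DESeq2 and exact tests also called 0 members from E18.5 to PN2 (1.13% and 2.05% of all genes called) and from PN14 to PN28 (0.925% and 1.43%). Between PN28 and adult each called 1, Fbxo32, against 5.54% and 6.79% of all genes. Fbxo32 was likewise the 1 member called in that interval with library size alone (5.14% of all genes) and with no filter (4.26%).

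**Figure D2:**
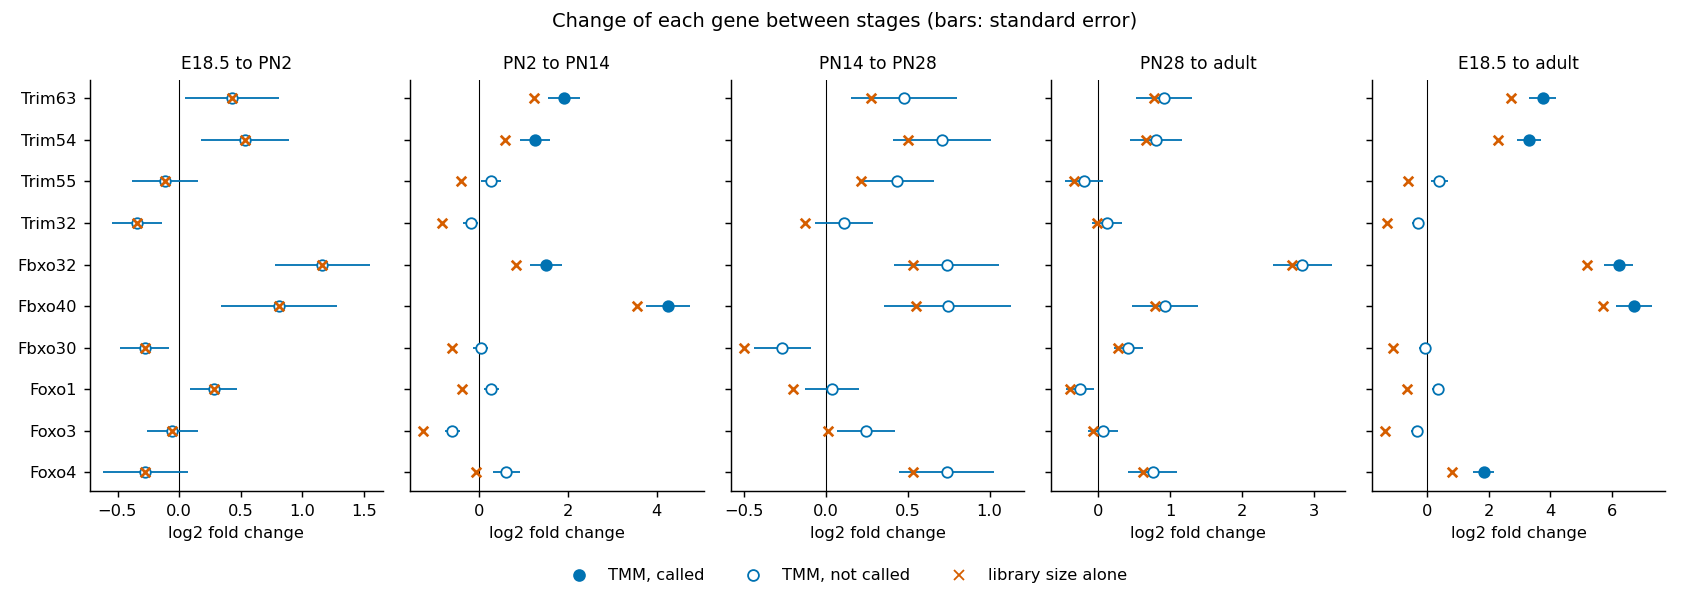
Log2 fold change of each gene in the 5 comparisons with TMM scaling (circles, filled where called, bars ± SE) and with library size alone (crosses), the x axis differing between panels. Fbxo40 and Fbxo32 reach 6.73 and 6.23 from E18.5 to adult, and the crosses lie left of the circles in every panel except E18.5 to PN2, where they coincide.

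Shares within a sum of 3 members do not depend on the scaling of a library, so they show the change of make-up among those members directly. In summed FPKM of the 3 MuRF genes, Trim55 held 43.1% at the fetal stage, 33.0% at PN2, 17.8% ± 1.44 over the PN14 pair (SD, n = 2), 15.7% at PN28 and 8.34% at 22 weeks. Over the same libraries the share of Trim54 went from 40.8% to 59.7% and that of Trim63 from 16.1% to 31.9%, with Trim63 already at 30.1% ± 2.05 at PN14. Trim54 and Trim63 made up most MuRF message in the adult, and Trim54 and Trim55 in the fetus.

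The order of the 3 F-box members turned over between the fetal and adult libraries. Their sum leaves out other F-box genes, such as Fbxo31 (20.75 FPKM at PN2) and Fbxo21 (11.17). Fbxo30 made up 63.3% of the fetal sum, 41.5% at PN2, 7.77% ± 3.0 over the PN14 pair (SD, n = 2) and 1.78% in the adult. Fbxo40 went from 17.1% at E18.5 to 75.4% ± 4.31 at PN14 and 79.2% at PN28, and then to 54.3% in the adult, where Fbxo32 held 43.9% after 17.2% at PN28. Among the 3 FoxO members Foxo4 held 70.3% at E18.5, 64.8% at PN2, 75.2% ± 5.6 at PN14, 82.7% at PN28 and 89.6% at 22 weeks. Foxo3 went from 18.4% to 5.20% and Foxo1 from 11.3% to 5.16%. Foxo6, left out of this sum, had 2.12 FPKM in the fetal library and 4.79 in that of PN2. It had 12.6 and 11.5 FPKM in the PN14 pair, 11.7 in the PN28 mouse and 4.12 at 22 weeks. Foxo6 was above Foxo1 and Foxo3 in every library from PN14 on. Counting it would lower each Foxo4 share, and the course of that share with Foxo6 was not computed.

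**Figure D3:**
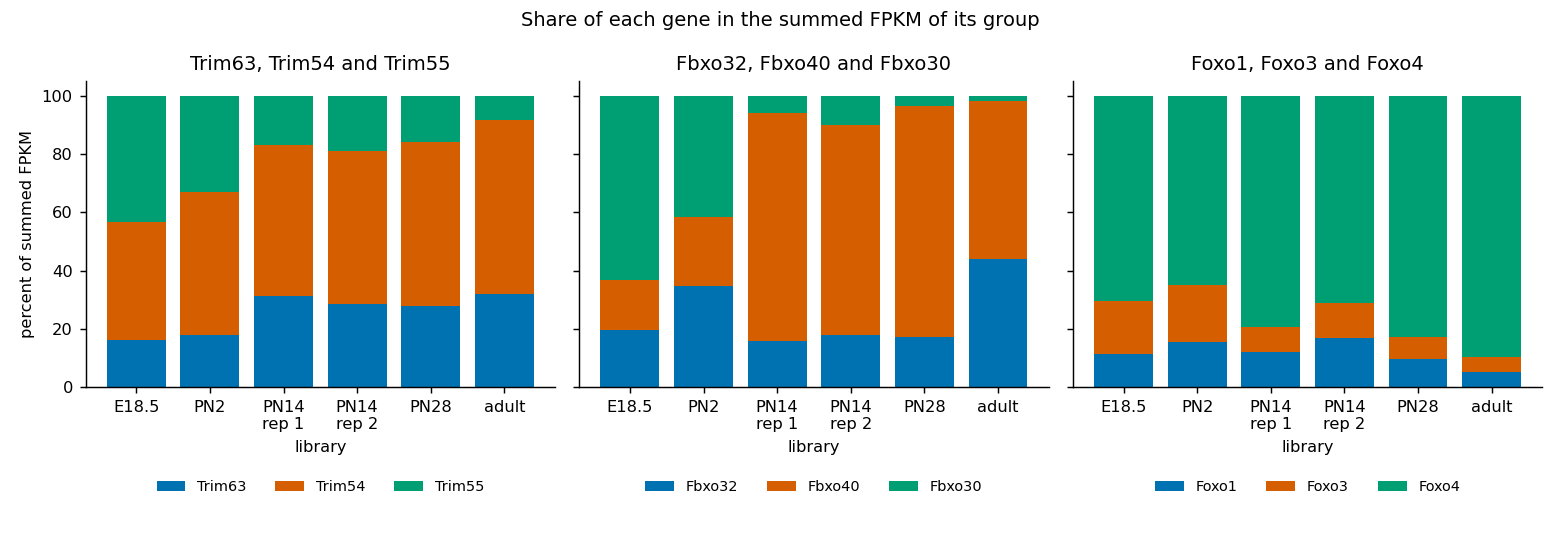
Stacked bars of each gene's percent of the summed FPKM of the 3 members in its panel (MuRF, F-box or FoxO), in the 6 libraries. Trim55 shrinks from 43.1% to 8.34% of its group and Fbxo30 from 63.3% to 1.78%, while Foxo4 is the majority of its own in every bar.

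The MuRF genes were also set against Ttn, the gene of titin, to which their proteins bind. This ratio was chosen after the values had been seen and carries no test. Trim63 FPKM per Ttn FPKM was 0.346 at E18.5, 0.393 at PN2, 0.699 and 0.650 at PN14, 0.679 at PN28 and 1.14 at 22 weeks. Trim54 went from 0.876 at E18.5 through 1.15 and 1.19 at PN14 to 2.13 in the adult, and Trim55 from 0.924 through 0.373 and 0.428 to 0.298. The PN14 replicates were closer together in these ratios for Trim63 and Trim54 than in FPKM, and for both genes the adult was the highest library.

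**Figure D4:**
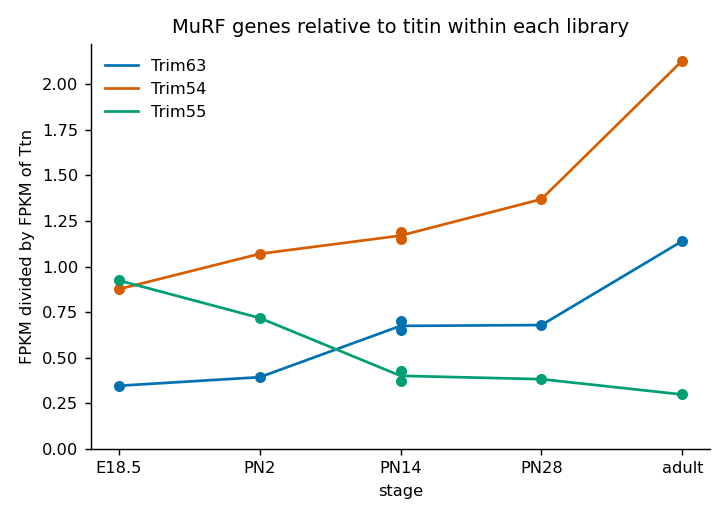
FPKM of Trim63, Trim54 and Trim55 divided by the FPKM of Ttn in the same library (linear axis from 0), 1 point per library with lines through the stage means. Trim54 ends at 2.13 and Trim63 at 1.14 in the adult, and Trim55 goes from 0.924 to 0.298.

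The PN14 pair is the only direct view of how these genes vary between mice. None of the 10 genes was 2-fold apart between the replicates, against 7.03% of all genes compared. The log2 difference (replicate 1 minus replicate 2, TMM) ran from -0.05 for Trim32 to 0.97 for Fbxo40. Its median was 0.48, and 7 of the 10 were higher in replicate 1. Over all genes compared the median was -0.009, and 8054 of 16497 were higher in replicate 1. In the same pair all 8 muscle fibre markers were higher in replicate 1 (median 0.61), and all 6 proliferation markers were higher in replicate 2 (median -1.04). The part of these marker differences in the spread of Fbxo40, Trim63 and Fbxo32 was not tested.

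Marker lists of other cells changed with stage beside the members. The summed FPKM of 8 fibre markers was 26870 at E18.5 and 31340 at PN2, between 77790 and 107000 in the later libraries, and no fibre marker was at 0. Connective tissue markers (7 genes) went from 6293 to 527, erythroid markers (7 genes) from 8937 to 393, satellite cell markers (5 genes) from 74.3 to 8.34 and proliferation markers (6 genes) from 164 to 0.50 between E18.5 and adult. Of the connective tissue markers 6 were called lower, against 23.6% of all genes. The other marker of this list, Dcn, went from 393 to 329 FPKM, most of the adult sum. Its log2 change after TMM scaling was 0.75 and was not called. The summed fat cell markers (6 genes), of which Fabp4 made up most, were between 372 and 639. Yet 5 of the 6 were called higher from E18.5 to adult (median log2 change 5.75), against 21.4% of all genes. Adipoq went from 1.06 to 12.8 FPKM and Cfd from 0.09 to 43.6. Macrophage markers (6 genes) between 42.3 and 79.2, and endothelial markers (6 genes) between 64.2 and 242. Lep was listed at 0 at E18.5. In whole muscle, fewer cells of a type and less RNA per cell cannot be told apart, and the part of these shifts in the members' values was not tested.

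Genes with the most similar course were found by the root mean square distance between profiles of log2 TMM-scaled CPM, each centred over the 6 libraries, among 8839 genes. Trim54 lay nearest to Ppp3cc, a calcineurin catalytic subunit (0.04). Trim63 lay nearest to Cpeb3 (0.09) and to Pfkm, muscle phosphofructokinase (0.10). The nearest genes of Fbxo40 were Abcb4 (0.28) and Actn3, the fast-fibre alpha-actinin (0.29), and those of Fbxo32 were Ttll7 (0.36) and Myoc (0.42), so the genes of widest range had the most distant neighbours. Foxo4 was nearest to Qser1 and Uaca, Foxo1 to Slc25a15 and Lyrm2, Foxo3 to Bag4 and Hat1, Trim55 to Bicd2 and Rc3h1, Trim32 to Lrrc40 and Hs1bp3, and Fbxo30 to Kmt2b and Ythdc1. Within the set the closest pair was Trim32 with Foxo3 (0.14), Trim63 and Trim54 were 0.26 apart, and Fbxo32 and Fbxo40 were 1.19 apart.

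Related genes were followed in 6 lists, whose counts stand beside 23.0% of all genes called from PN2 to PN14 (11.8% rose, 11.2% fell) and 44.9% from E18.5 to adult (21.4% rose, 23.6% fell). Of 22 FoxO regulators, 3 rose and 3 fell from PN2 to PN14 and 5 rose and 3 fell from E18.5 to adult, with medians of -0.06 and 0.67 against -0.01 and -0.05 for all genes tested, so 6 and 8 of the 22 were called, near or below the background. Sgk1, a kinase that phosphorylates FoxO proteins, rose by 3.18 from PN2 to PN14 and by 4.31 from E18.5 to adult. Foxo6, the remaining FoxO gene, rose by 2.00 and 1.98, and Prkaa2, an AMPK catalytic subunit, by 1.74 and 3.04. The regulators that fell in both comparisons were Skp2, a ligase subunit acting on Foxo1 (-2.13 and -5.10), Igf1r, the IGF-1 receptor (-1.21 and -1.77), and Akt1 (-1.08 and -2.08). Akt1 went from 138 FPKM at E18.5 to 16.1 in the adult, while Akt2, the Akt of insulin action, went from 85.2 to 75.0. After TMM scaling the Akt2 difference was in the other direction, 0.86 on the log2 scale (SE 0.275, adjusted p = 0.0406, edgeR quasi-likelihood test), and under the size limit for a call. Foxo6 reached 12.6 and 11.5 FPKM at PN14 and 4.12 in the adult.

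Of 30 known FoxO targets outside the 10 genes, 7 rose and 1 fell from PN2 to PN14, and 18 rose and 1 fell from E18.5 to adult, with medians of 0.60 and 1.42. The 8 of 30 called in the shorter interval were near the 23.0% of all genes. Klf15, a glucocorticoid-induced factor, rose by 2.43 from PN2 to PN14, Bnip3, a mitophagy receptor, by 2.07 and Pdk4, which spares glucose, by 1.95. Sqstm1 (3.01), an autophagy receptor, Fbxo31 (2.60) and Tfeb (2.59), the lysosomal transcription factor, led the rise from E18.5 to adult. The gene that fell in both was Cdkn1a, the cell cycle inhibitor p21, at 176 FPKM at E18.5 and 7.60 in the adult. Pdk4 was at 132 and 361 FPKM in the PN14 replicates, 2.29-fold apart after TMM scaling.

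Of 36 other ubiquitin ligases of muscle, 13 were called from PN2 to PN14, each of which rose, and 24 rose and 2 fell from E18.5 to adult, with medians of 0.59 and 1.37, against 11.8% and 21.4% of all genes that rose. The largest changes were in ASB subunits, which bring substrates to cullin complexes. Asb14 rose by 7.97 from E18.5 to adult, from 0.40 to 47.3 FPKM, Asb15 by 6.12 and Asb10 by 5.79, while Fbxl22 (-2.35) and Lmo7 (-1.13) fell. From PN2 to PN14, Klhl34 (3.57), Asb14 (3.41) and Asb15 (3.24) led, although each of these was more than 2-fold higher in PN14 replicate 1 than in replicate 2.

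Of 21 genes of ubiquitin, its conjugating enzymes and the SCF core, 4 rose from PN2 to PN14 and 10 rose and 1 fell from E18.5 to adult, with medians of 0.53 and 0.99. The 4 and 11 of 21 called were near the 23.0% and 44.9% of all genes. Ube2b (2.94) and Ube2d1 (2.91), both E2 conjugating enzymes, and Cul3 (2.39) led the longer comparison, and Cand1, which exchanges SCF subunits, fell by 1.95. With library size alone 4 rose and 3 fell in the same comparison. The shorter interval was led by Ube2d1 (1.83), Ube2b (1.64) and Ube2g1 (1.34).

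Of 25 substrates and partners of the ligases, 4 rose from PN2 to PN14 and 8 rose and 2 fell from E18.5 to adult, with medians of 0.77 and 1.70. The 4 and 10 of 25 called were below the 23.0% and 44.9% of all genes. From PN2 to PN14, DESeq2, the exact test and library size alone called 11, 12 and 13 (21.3%, 27.6% and 34.5% of all genes). From E18.5 to adult they called 16, 16 and 17 (39.1%, 48.3% and 53.6%). Myh4, the fast IIb myosin, went from 43.9 to 12055 FPKM (9.13), Mybpc2, the fast myosin-binding protein C, rose by 6.24 and Myh1 by 5.79, while Bmp4 (-1.46) and Ankrd1 (-1.43) fell. Myh1 (5.77), Mybpc2 (4.87) and Myh2 (2.93) were the largest called from PN2 to PN14. Of 18 genes of the fasting and glucocorticoid response, 8 rose and 3 fell from PN2 to PN14, and 8 rose and 1 fell from E18.5 to adult, with medians of 1.04 and 0.42, and the 9 of 18 called in the longer comparison were near the 44.9% of all genes. Slc25a25 (3.12), Zbtb16 (2.49) and Klf15 rose most in the first, and Cdkn1a (-2.75), Mt2 (-1.71) and Fkbp5 (-1.06) fell. Lpin1 (4.83), Ucp3 (4.56) and Slc25a25 (3.13) led from E18.5 to adult. In the same list, 4 of the 18 were more than 2-fold apart in the PN14 pair after TMM scaling, among them Per1 (7.11-fold higher in replicate 1) and Angptl4 (5.51-fold higher in replicate 2).

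With library size alone the lists split differently from E18.5 to adult, where 7.98% of all genes rose and 45.6% fell: 12 rose and 6 fell among the FoxO targets and among the other ligases, 2 rose and 7 fell among the regulators, 10 rose and 7 fell among the substrates, and 6 rose and 7 fell in the fasting list. Outside PN2 to PN14 and E18.5 to adult, edgeR's quasi-likelihood test called 0 genes of all 6 lists. Between 0 and 9 of a list had an unadjusted p under 0.05 in that test, and library size alone called between 0 and 5. Both highest counts were in the fasting list. Of its 18 genes, 9 reached that p between E18.5 and PN2 (6.64% of all genes) and 6 between PN14 and PN28 (8.41%). Between PN28 and adult 2 did (18.3%). Library size alone called 4, 5 and 0 of the 18 in that order (1.43%, 1.55% and 5.14% of all genes). Between E18.5 and PN2 the unadjusted p was reached by 8 of 36 other ligases, 6 of 30 targets and 1 of 22 regulators.

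**Figure D5:**
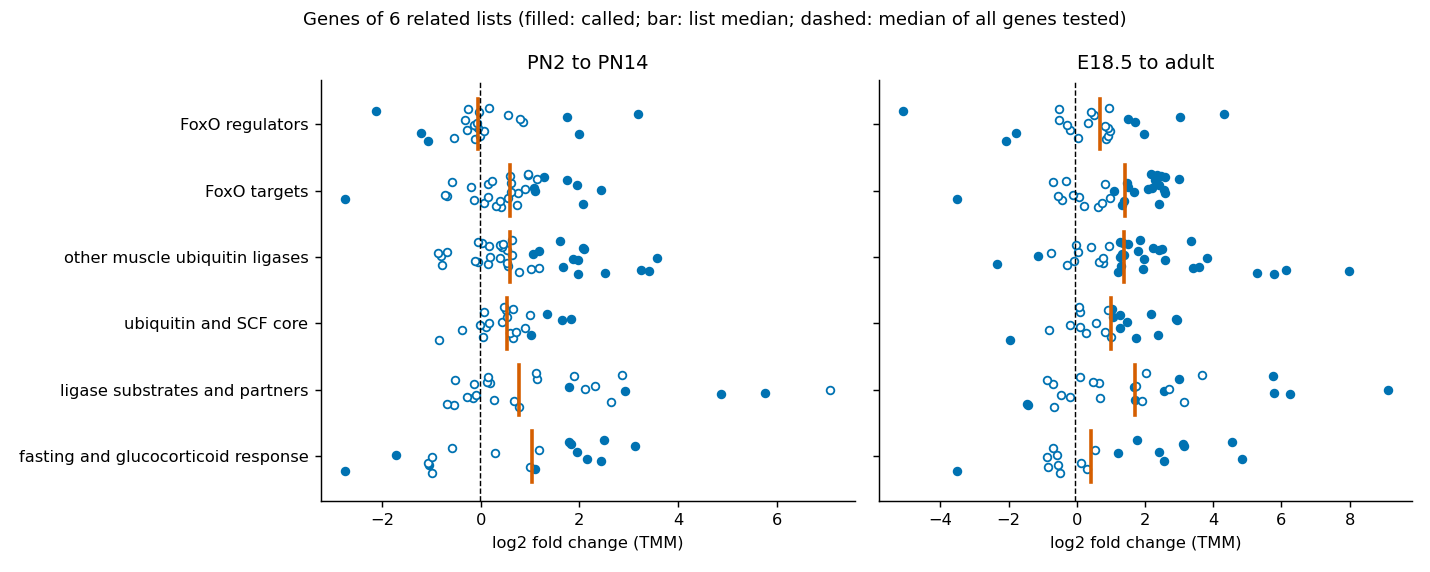
Log2 fold change (TMM) of each gene in 6 related lists from PN2 to PN14 and from E18.5 to adult, filled where called, with the list median (bar) and the median of all genes tested (dashed). From E18.5 to adult the medians of FoxO targets (1.42) and other muscle ligases (1.37) lie right of the line at -0.05, and the lists hold called genes on both sides of it.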

How the data were processed

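Per the labels and the study's methods, the authors aligned paired-end reads from polyadenylated RNA of 6 libraries to mm9 with TopHat2 2.0.5 and counted them on gene models with RSEM. The deposited table gives expected counts, not normalized, and FPKM values, which the authors scaled to gene length and library total. The 10 members and the lists were chosen with earlier results of these data known. Expected counts were rounded and fitted in R 4.3.3 with edgeR 4.0.16 (TMM, filterByExpr, quasi-likelihood test, 5 stages as groups, 16882 genes tested; common biological coefficient of variation 0.188, prior of 4.86 degrees of freedom). p-values were adjusted by Benjamini-Hochberg over all genes tested. Each SE was derived from the test, as the size of the log2 fold change divided by the square root of the F statistic. The test was tested on simulated data. The named genes were all members, up to 3 called genes a direction with the largest change in each of the 6 lists for PN2 to PN14 and E18.5 to adult, and the 2 genes nearest in profile to each member (mean of at least 10 CPM, prior count 0.5; 1 of these is not reported here); genes outside the rule (Akt2, Ttn, Per1, Angptl4, Irs2 and the fat cell markers) were chosen after their values were seen. Alternatives were library size alone, DESeq2's size factors, DESeq2 1.42.0's Wald test, edgeR's exact test, no filter, a mean of at least 1 CPM, leaving out a PN14 library, a pseudocount of 1 in place of 0.1 on log2 FPKM, FPKM divided by the TMM factor, and PN2 in place of E18.5. Gene positions came from GENCODE M1 (mm9).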

Additional observations from a re-analysis of the deposited data

How the results depend on the processing

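No paired analysis was possible because only PN14 has more than 1 library and the stages share no second replicate number. Of 310 log2 fold changes of members recomputed under the alternatives that carry a test, 286 kept their direction and their side of the threshold, 13 reversed, 3 lost the call and 8 gained it. With library size alone the reversed values were, from PN2 to PN14, Trim55 -0.40, Fbxo30 -0.62, Foxo1 -0.37 and Foxo4 -0.065, from PN14 to PN28 Trim32 -0.13 and Foxo1 -0.20, from PN28 to adult Trim32 -0.0147 and Foxo3 -0.07, and from E18.5 to adult Trim55 -0.63 and Foxo1 -0.68. Fbxo30 was at -0.0038 from PN2 to PN14 with a mean of at least 1 CPM, and Trim32 at 0.0429 and Fbxo30 at 0.19 with PN2 in place of E18.5. None of the reversed changes was called in either fit. From PN28 to adult 1 member, Fbxo32, was called with library size alone, DESeq2's Wald test, edgeR's exact test and no filter (adjusted p from 5.85e-11 to 0.00592).

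Genes called from E18.5 to PN2 were 5, against 241 with library size alone, 165 with DESeq2, 346 with the exact test and 97 with no filter. From PN14 to PN28 they were 3, against 262, 135, 241 and 56 in that order, and from PN28 to adult 88, against 868, 808, 1146 and 835, with 13 at a mean of at least 1 CPM. Substrates and partners called from PN2 to PN14 were 4 of 25, against 13 with library size alone, 11 with DESeq2 and 12 with the exact test. The shares of all genes called were 23.0%, 34.5%, 21.3% and 27.6% in that order. From E18.5 to adult they were 10, against 17, 16 and 16, with 44.9%, 53.6%, 39.1% and 48.3% of all genes called. The ubiquitin and SCF core from E18.5 to adult had 11, against 7 with library size alone (44.9% and 53.6% of all genes called). The cause was not tested.

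With either PN14 library left out, given as values with no test, the PN2 to PN14 change of Trim63 ran from 1.52 to 2.24, of Trim54 from 0.96 to 1.51, of Fbxo32 from 1.12 to 1.81 and of Fbxo40 from 3.68 to 4.66. Without replicate 1 that of Trim54 was under the size limit of 1, and the PN14 to PN28 changes of Trim54 (1.01), Fbxo32 (1.13), Fbxo40 (1.31) and Foxo4 (1.07) were over it. On log2 FPKM, Fbxo32 and Fbxo40 from E18.5 to adult were 4.61 and 5.04 with a pseudocount of 1.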

Other observations

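Genes of the fasting and glucocorticoid list and of the FoxO regulators, chosen after their values were seen, stood apart between the PN14 mice. Per1 was at 20.7 FPKM in replicate 1 and 3.49 in replicate 2, Slc25a25 at 42.0 and 12.8, and Irs2 at 3.56 and 1.45. Angptl4 was at 4.18 and 27.6 in the same order, Pdk4 at 132 and 361 and Ucp3 at 42.9 and 77.0. Of the genes described above, Trim63 was at 70.9 and 51.6 FPKM and Fbxo32 at 8.61 and 6.36.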
